A study of Mus musculus with 12 samples.

Results

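The genes described here are 10 chemokine ligands whose messenger RNA was counted in cultured 4T1 tumour cells: Cxcl1, Cxcl2, Cxcl3, Cxcl5, Cxcl10, Cxcl16, Ccl2, Ccl7, Ccl20 and Cx3cl1. They were taken by symbol from the 31017 genes that the deposited count tables list, and all 10 were found there. Of the 10 members, 8 had enough reads to be tested among 13763 genes, and Ccl2 and Ccl7 had too few.

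The RNA came from 12 libraries in 6 groups, with 2 libraries in each. Every group was the 4T1 line, a mouse mammary carcinoma line, and every culture descended from cells that had been nucleofected with sgRNA. Etv4 KO clone 2 and Etv4 KO clone 1 are single clones selected after Cas9 and sgRNA against Etv4, and the control is a pool of clones given Control sgRNA. Etv4 encodes an ETS transcription factor of the PEA3 group. Each was grown in 3D, within a gel of Collagen I, and in 2D, on plastic. A single clone can differ from a pool in more than the targeted gene, so effects of the targeting and of the choice of the clone cannot be told apart here. The gel, the collagenase that freed cells from it and the count table also changed together, so in every comparison of 3D with 2D they cannot be told apart. The labels do not say that replicates were separate cultures, and a p-value here covers the spread of the 2 libraries of a group alone, which may be technical.

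Chemokines are small secreted or membrane-tethered proteins that steer the movement of cells carrying matching receptors. Cxcl1, Cxcl2, Cxcl3 and Cxcl5 carry the ELR motif and draw neutrophils through the receptor Cxcr2. Cxcl10 attracts T cells and NK cells through Cxcr3, Ccl2 and Ccl7 attract monocytes through Ccr2, and Ccl20 attracts cells carrying Ccr6. Cxcl16 and Cx3cl1 are made as transmembrane proteins with a mucin-like stalk and are released by proteases, and their receptors are Cxcr6 and Cx3cr1. Many chemokine genes are induced by NF-kB downstream of interleukin 1 and TNF, and their messenger RNAs are often short-lived. 4T1 tumours are known for the neutrophils and other myeloid cells that accumulate in the animals that carry them.

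Library totals were 26.5 to 33.2 M counts in 3D and 12.3 to 18.7 M in 2D, so a gene at a low level is measured less precisely in 2D. Reads fell on 17135 to 17595 genes in 3D libraries and on 13459 to 13875 in 2D libraries. Levels are counts per M reads counted (CPM), after TMM scaling of library sizes. Each adjusted p comes from the quasi-likelihood test of edgeR (two-sided, Benjamini-Hochberg over all 13763 genes tested), and a gene is called higher or lower at an adjusted p under 0.05. The epithelial markers Krt8, Krt18, Epcam and Cdh1 summed to 2204 to 3997 CPM. Markers of other cell types were low: the 7 leukocyte markers summed to 7.59 to 11.1 CPM in 3D and 1.68 to 5.46 CPM in 2D, with Adgre1 and Itgam at 0 counts. The 5 fibroblast markers summed to 19.9 to 23.8 CPM in 3D and 4.11 to 7.39 CPM in 2D, nearly all of it Pdgfra, with Lum at 0 counts. The 4 endothelial markers summed to 3.39 to 5.64 CPM in 3D and 8.53 to 14.9 CPM in 2D, most of it Egfl7. These sums moved with the culture format, and their part in the format differences below was not tested. In bulk RNA, fewer cells of a type and less RNA per cell cannot be told apart. Etv4 itself had 86.6 and 91.5 CPM in clone 2, 69.8 and 69.1 in clone 1 and 94.7 and 99.4 in control in 3D. In 2D it had 49.2 and 46.0 CPM in clone 2, 49.8 and 49.2 in clone 1 and 78.1 and 76.0 in control, and the count of a whole gene says little of a small edit within it.

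Cxcl1, Cxcl16, Cx3cl1 and Cxcl5 carried nearly all of the measured chemokine RNA. Compared between genes per length, on the scale of CPM per kb of the principal transcript, the 10 members summed to 294 and 292 in clone 2 in 3D, 305 and 323 in clone 1 in 3D, and 189.5 and 190.4 in control in 3D. In 2D the sums were 128 and 127 in clone 2, 96.7 and 98.7 in clone 1, and 155 and 145 in control. Both clones thus stood above the control in every 3D library and below it in every 2D library. Cxcl1 was the most abundant member in 3D, at 62.2 and 62.8% of the summed level in clone 2, 73.1 and 74.0% in clone 1, and 54.4 and 56.1% in control. In 2D it made up 41.8 and 42.3% in clone 2, 35.1 and 32.6% in clone 1, and 30.9 and 32.5% in control, where Cxcl16 was first with 35.4 and 38.2%. Cx3cl1 held 15.0 and 15.4% of the pool in control in 3D and 3.69 and 3.83% in control in 2D.

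**Figure D1:**
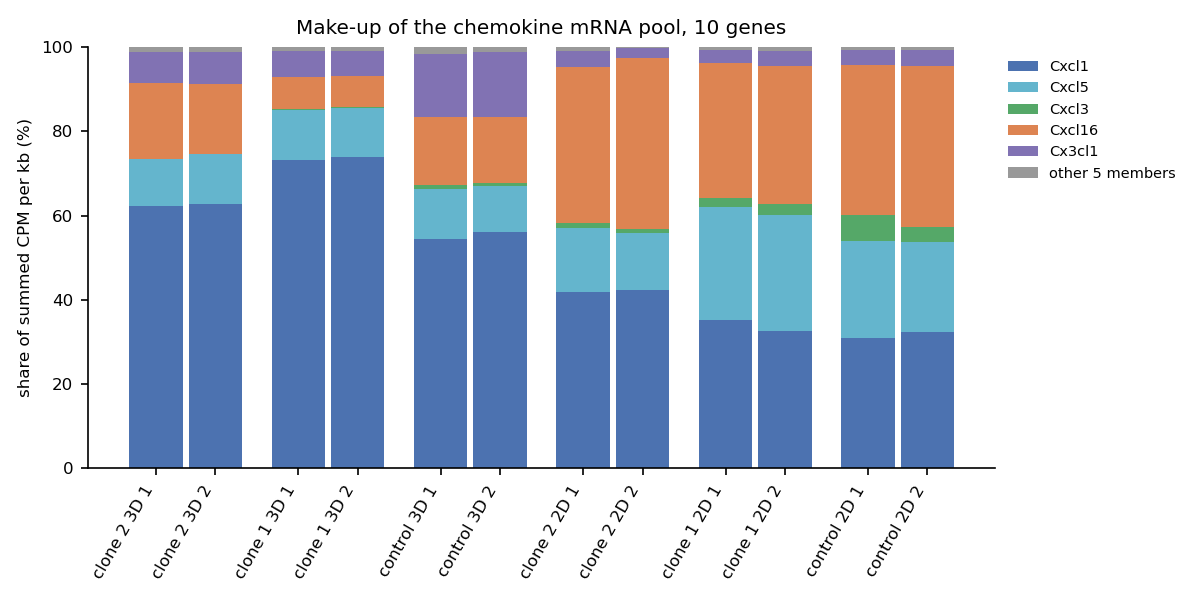
Share of each chemokine in the summed level of the 10 members (percent of CPM per kb of transcript, vertical axis) for each of the 12 libraries, grouped by clone and format. Cxcl1 takes 54.4% or more of the bar in every 3D library and at most 42.3% in every 2D library, while Cxcl16 takes at most 17.99% in 3D and at least 32.1% in 2D.

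The 4 ELR chemokines lie in one cluster on chromosome 5, in the order Cxcl5, Cxcl3, Cxcl1 and Cxcl2, all on the plus strand. In GENCODE M21 (mm10) Cxcl1 (ENSMUSG00000029380.11) is at chr5:90891241-90893115, and relative to its start that of Cxcl5 is at -131.88 kb, that of Cxcl3 at -105.14 kb and that of Cxcl2 at 12.63 kb. None of the 4 has exons that overlap another annotated gene. Cxcl2 and Cxcl3 share 61 identical stretches of 50 bases, which are 5.76% of those of the Cxcl2 transcript and 6.31% of those of Cxcl3, so their reads could be mixed to a small extent. The 250 bases before the RefSeq start of Cxcl1, Cxcl2 and Cxcl3 (GRCm38.p6, plus strand, at chr5:90890995-90891244, chr5:90903649-90903898 and chr5:90785851-90786100) are shown because these close relatives differed in the clones while sharing a promoter element. Capitals mark the letters that match the consensus of the kB element, which NF-kB binds.
Cxcl1: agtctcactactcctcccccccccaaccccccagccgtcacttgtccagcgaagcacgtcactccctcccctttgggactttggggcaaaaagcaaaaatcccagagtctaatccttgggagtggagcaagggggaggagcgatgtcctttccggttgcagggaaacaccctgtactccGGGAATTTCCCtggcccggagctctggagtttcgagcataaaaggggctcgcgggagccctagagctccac
Cxcl2: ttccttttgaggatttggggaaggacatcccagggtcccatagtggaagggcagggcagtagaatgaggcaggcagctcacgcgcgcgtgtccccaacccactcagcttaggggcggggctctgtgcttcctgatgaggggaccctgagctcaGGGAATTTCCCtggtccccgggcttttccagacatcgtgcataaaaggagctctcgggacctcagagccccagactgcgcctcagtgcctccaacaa
Cxcl3: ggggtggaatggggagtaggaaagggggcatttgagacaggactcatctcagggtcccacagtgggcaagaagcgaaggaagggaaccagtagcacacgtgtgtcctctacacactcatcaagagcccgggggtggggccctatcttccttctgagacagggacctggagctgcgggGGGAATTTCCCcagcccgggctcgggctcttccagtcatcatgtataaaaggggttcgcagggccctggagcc
The element begins 71 bases before the start in Cxcl1, 97 in Cxcl2 and 73 in Cxcl3. On the plus strand all 3 windows match it through the letters GGGAATTTCC. These letters were taken from the match in Cxcl1, and 28 of 32851 RefSeq promoters of 250 bases hold them on either strand (0.0852%), these 3 among them. The kB consensus as a whole, searched on both strands, matched 7.25% of those promoters, and among members also Cxcl10 and Ccl20. The letters AGGAAG, which PEA3 factors can bind, were found in 29.5% of those promoters, among them Cxcl2, Cxcl3, Cx3cl1 and Ccl20, and not in this window of Cxcl1. The letters TGANTCA of the AP-1 element were found in 6.75% of the promoters, and among members in that of Cxcl10 alone. AGGAAG and TGANTCA were searched on both strands too, and no match of one element overlapped a match of another in the 6 members that have an entry. A match is a description of letters and no measurement of binding.

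Cxcl1 was higher than control in both clones in 3D and in neither in 2D. In 3D it had 174 and 175 CPM in clone 2, 213 and 228 CPM in clone 1 and 98.2 and 102 CPM in control. All 4 clone libraries lay above both control libraries, by 1.74-fold in clone 2 (log2 change 0.80 ± 0.05 SE, adjusted p = 1.06e-11) and 2.20-fold in clone 1 (1.14 ± 0.05, adjusted p = 3.99e-15). On plastic it had 51.1 and 51.1 CPM in clone 2, 32.3 and 30.7 CPM in clone 1 and 45.8 and 44.98 CPM in control. Here clone 1 was lower than control, with a log2 change of -0.52 ± 0.07 (adjusted p = 2.8e-06). Clone 2 lay slightly above the control, at 0.17 ± 0.07, and missed the threshold (adjusted p = 0.0521).

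Cxcl5, known as LIX in mice, stood above control in 3D and below it in 2D in both clones. It had 52.1 and 54.2 CPM in clone 2, 57.2 and 58.5 CPM in clone 1 and 35.7 and 32.7 CPM in control in 3D, with no overlap between clones and control. The log2 changes were 0.64 ± 0.08 in clone 2 (adjusted p = 6.56e-07) and 0.76 ± 0.08 in clone 1 (adjusted p = 1.64e-08). On plastic it had 30.9 and 26.9 CPM in clone 2, 41.1 and 42.8 CPM in clone 1 and 56.2 and 48.5 CPM in control. Cxcl5 was thus lower in both clones in 2D, by a log2 change of -0.85 ± 0.09 in clone 2 (adjusted p = 7.68e-08) and -0.32 ± 0.09 in clone 1 (adjusted p = 0.00512). The call in clone 1 rests on the first control library, without which the change was -0.21 (adjusted p = 0.0944).

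Cxcl3 was lower than control in both clones in both formats. It had 0.315 and 0.328 CPM in clone 2, 0.531 and 0.708 CPM in clone 1 and 1.60 and 1.61 CPM in control in 3D, which are 9 and 9, 14 and 22, and 44 and 45 counts. These are 4.93-fold and 2.56-fold lower levels in clone 2 (-2.30 ± 0.43, adjusted p = 0.000172) and in clone 1 (-1.35 ± 0.38, adjusted p = 0.00465). Without the first clone 1 library in 3D the value in clone 1 was -1.19 and no longer passed (adjusted p = 0.0553). In 2D Cxcl3 had 1.57 and 1.42 CPM in clone 2, 1.96 and 2.57 CPM in clone 1, and 9.99 and 5.53 CPM in control. The control libraries differ from each other here, yet both lie above every clone library. The log2 changes were -2.36 ± 0.32 in clone 2 (adjusted p = 3.04e-06) and -1.78 ± 0.31 in clone 1 (adjusted p = 4.99e-05).

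Cxcl2, also called MIP-2, was barely detected, and its few reads were mostly in control. In 3D it had 1 and 3 counts in clone 2, 9 and 8 in clone 1 and 19 and 19 in control. Cxcl2 had enough reads to be tested only through control in 3D, which favours lower values in the other groups. It was lower in clone 2 (-3.16 ± 0.73, adjusted p = 0.00159), and the value in clone 1 was -1.19 ± 0.55 (adjusted p = 0.0831). Without the first clone 2 library in 3D the value was -2.59 (adjusted p = 0.0577), and without the second it was -4.08 (adjusted p = 0.014). In 2D it had 0 and 0 counts in clone 2, 1 and 0 in clone 1 and 5 and 5 in control. With clone 2 set to a floor of 3 counts over the group, Cxcl2 was 3.72-fold lower there than in control, without allowance for counting error in control. EdgeR, which fitted the counts without that floor, called Cxcl2 lower in clone 2 (adjusted p = 0.0125). That call was lost without the first clone 2 library in 2D (adjusted p = 0.07) and when only 2D libraries were fitted (adjusted p = 0.117). The ratio of clone 1 to control in 2D was 0.109, with a 95% exact interval of 0.00251 to 0.765 that covers counting error only, and edgeR did not call it (adjusted p = 0.0636).

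Cxcl1 and Cxcl5 against Cxcl3 and Cxcl2 therefore lay on opposite sides of control in 3D within one gene cluster. Ppbp, the platelet basic protein gene between Cxcl5 and Cxcl3, is not a member and is given for its place in the cluster. It was higher in clone 1 in 3D (1.57 CPM in clone 1, 0.453 CPM in control, 1.79 ± 0.42, adjusted p = 0.0011) and in 2D (4.97 CPM in clone 1, 1.09 CPM in control, 2.17 ± 0.39, adjusted p = 6.51e-05). In clone 2 Ppbp was at -1.62 ± 0.66 in 3D (adjusted p = 0.0681) and at -0.64 ± 0.51 in 2D (adjusted p = 0.362). Over chromosome 5 the median log2 change was 0.074 in clone 2 and 0.229 in clone 1 in 3D, and of 0.058 in clone 2 and 0.196 in clone 1 in 2D. With each chromosome centred on its median, every call of Cxcl1, Cxcl3 and Cxcl5 against control kept its direction and stayed past the threshold, Cxcl1 in clone 2 in 2D stayed uncalled (0.11, adjusted p = 0.225), and Cxcl2 in clone 1 in 3D passed at -1.42 (adjusted p = 0.0483).

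**Figure D2:**
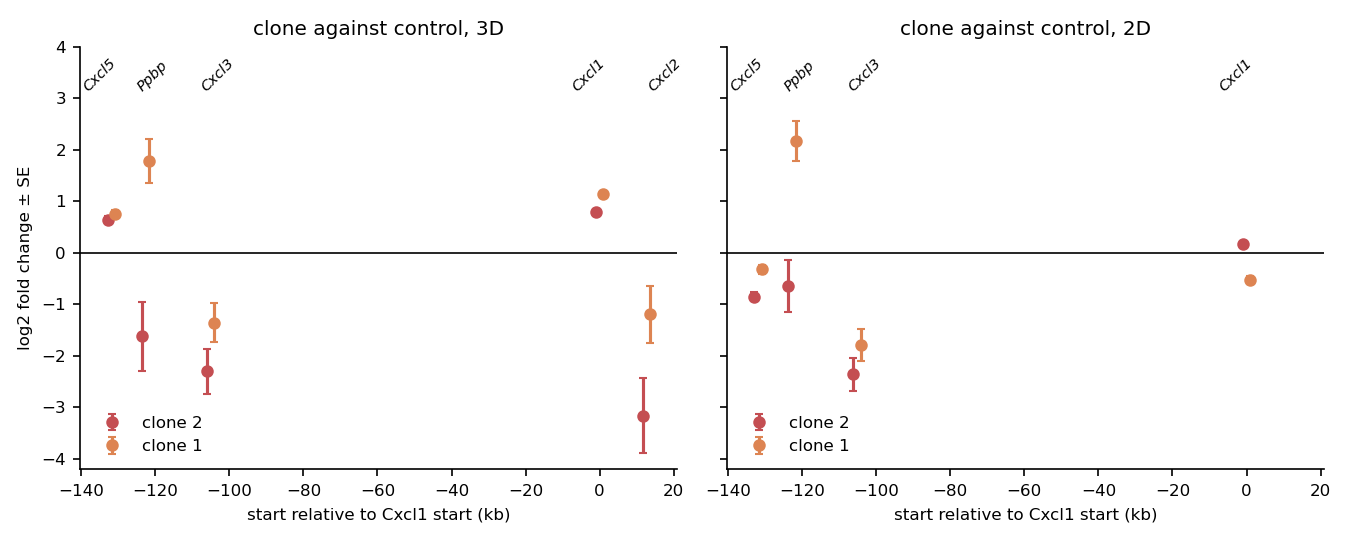
Log2 fold change against control with its SE (vertical axis) for chemokine genes of the chromosome 5 cluster, placed by the distance of each start from that of Cxcl1 in kb (horizontal axis), for clone 2 (red) and clone 1 (orange) in 3D (left) and 2D (right). In 3D Cxcl5 and Cxcl1 lie above 0 in both clones while Cxcl3 and Cxcl2 lie below 0. Cxcl2 is left out of the 2D panel because clone 2 had no counts there.

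Cxcl16, the ligand of Cxcr6, lay on opposite sides of control in the 2 clones in 3D. It had 143 and 131 CPM in clone 2, 63.5 and 64.9 CPM in clone 1 and 82.8 and 79.8 CPM in control in 3D. Clone 2 was higher than control (0.75 ± 0.06, adjusted p = 1.68e-10) and clone 1 was lower (-0.34 ± 0.06, adjusted p = 4.81e-05), with no overlap among the 3 groups. Its 2D levels were 128 and 139 CPM in clone 2, 83.8 and 87.3 CPM in clone 1 and 148 and 150 CPM in control. It was lower in clone 1 (-0.80 ± 0.06, adjusted p = 1.8e-10) and slightly lower in clone 2 (-0.16 ± 0.06, adjusted p = 0.0381). That small change in clone 2 was not called without the first control library (-0.17, adjusted p = 0.0664), the second control library (-0.16, adjusted p = 0.0939) or the first clone 2 library (-0.10, adjusted p = 0.299) of 2D. Cxcl16 (ENSMUSG00000018920.11) lies on chromosome 11 (chr11:70453983-70459984, minus strand). Over chromosome 11 the median log2 change of clone 1 was -0.43 in 3D and -0.38 in 2D, and clone 2 was at 0.016 in 3D and -0.086 in 2D. With chromosomes centred, Cxcl16 of clone 1 in 3D had a value of 0.09 (adjusted p = 0.269) and that of clone 2 in 2D -0.08 (adjusted p = 0.377), and neither was called. Exons of Zmynd15 on the other strand cover 18.3% of the exon length of Cxcl16, and reads of the pair may not have been told apart. Zmynd15 had 8.74 and 6.82 CPM in clone 2, 1.44 and 1.51 CPM in clone 1 and 3.35 and 3.40 CPM in control in 3D, the same order of groups as Cxcl16 at a far lower level.

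Cx3cl1, or fractalkine (ENSMUSG00000031778.13, chr8:94772009-94782427), was lower than control in both clones in both formats. In 3D it had 70.8 and 72.2 CPM in clone 2, 62.4 and 64.5 CPM in clone 1 and 94.1 and 97.2 CPM in control, with no overlap. The log2 changes were -0.42 ± 0.09 in clone 2 (adjusted p = 0.00112) and -0.59 ± 0.09 in clone 1 (adjusted p = 1.12e-05), and with DESeq2's Wald test clone 2 was at -0.41 (adjusted p = 0.132). In 2D it had 16.2 and 9.10 CPM in clone 2, 10.2 and 11.7 CPM in clone 1 and 19.0 and 18.5 CPM in control. The first clone 2 library lay close to the control and the second well below it. Clone 1 was at -0.78 ± 0.16 (adjusted p = 0.000265) and clone 2 at -0.53 ± 0.15 (adjusted p = 0.00624), and without the second clone 2 library the change in clone 2 was -0.21 (adjusted p = 0.179).

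Cxcl10, an interferon-induced ligand, was low and did not pass in any comparison of a clone with control. It had 3.18 and 2.99 CPM in clone 2, 2.16 and 2.22 CPM in clone 1 and 2.41 and 1.72 CPM in control in 3D. Clone 2 lay above control without overlap, at 0.58 ± 0.32 (adjusted p = 0.188), and fitting only 3D libraries called it (0.58, adjusted p = 0.0102). In 2D it had 22 and 4 counts in clone 2, 8 and 1 in clone 1 and 7 and 5 in control, and the groups overlapped. Exons of Art3 on the other strand cover 5.91% of the exon length of Cxcl10, and Art3 had at most 0.547 CPM in any library.

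Of the CC ligands, Ccl20 had 9 and 12 counts in clone 2, 10 and 11 in clone 1 and 7 and 5 in control in 3D. In 2D it had 0 and 1 counts in clone 2, 0 and 8 in clone 1 and 1 and 3 in control, with all of the clone 1 reads in one library. No difference of Ccl20 between a clone and control was detectable at this depth. Ccl2 had 7 and 4 counts in clone 2, 0 and 0 in clone 1 and 0 and 1 in control in 3D, and at most 2 counts in any 2D library. Clone 2 in 3D was the group with most Ccl2 reads, 10.9 times the control by CPM with a 95% exact interval of 1.58 to 468, which covers counting error only. With clone 1 in 3D set to a floor of 3 counts over the group, the ratio of clone 2 to it was 3.76, without allowance for counting error in clone 2. Ccl7 had no count in any of the 12 libraries, which allows a level of up to 0.0966 to 0.241 CPM, depending on the library.

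**Figure D3:**
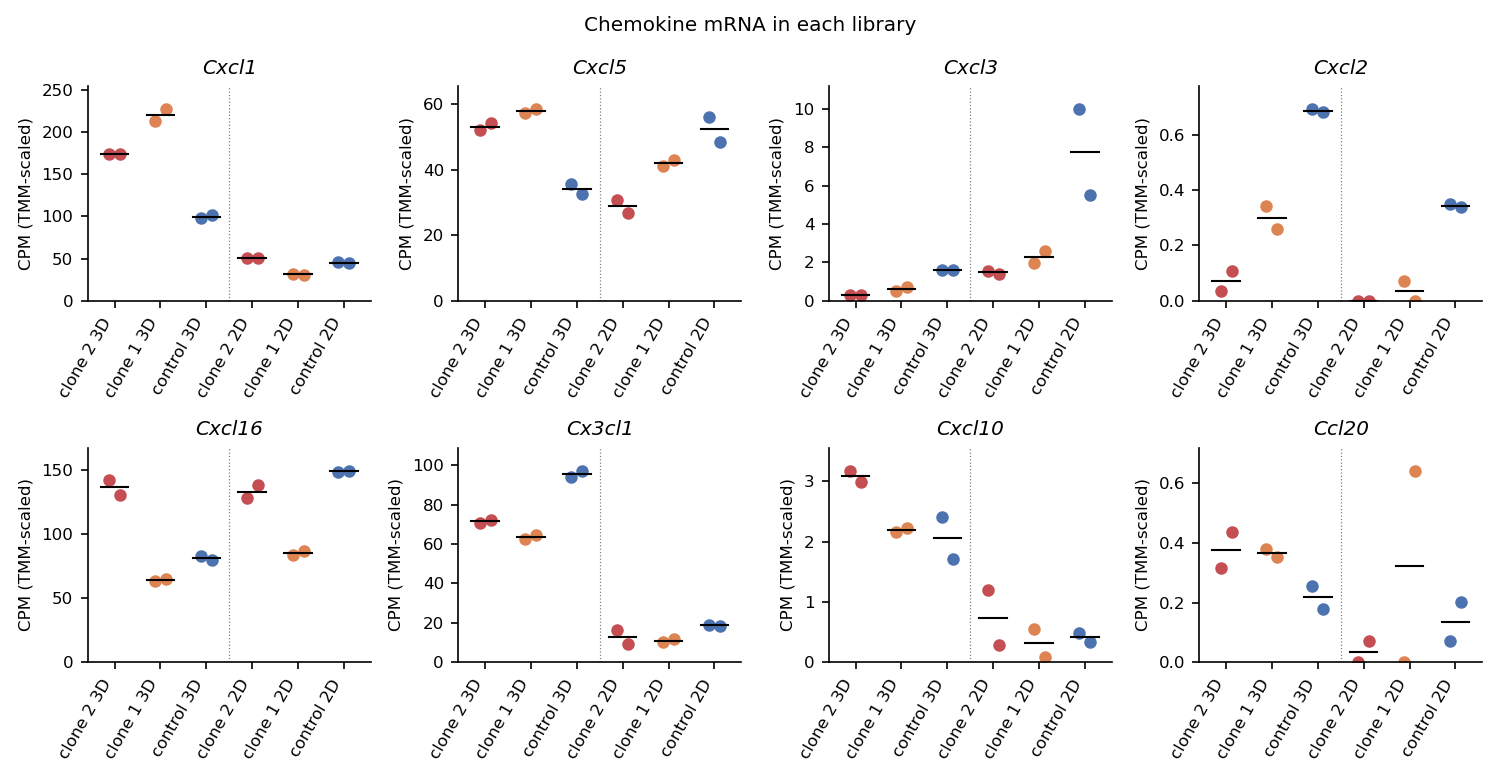
CPM of the 8 members that were tested (vertical axes) in each library, with a point per library and a line at the mean of 2, for clone 2 (red), clone 1 (orange) and control (blue) in 3D (left of the dotted line) and 2D (right of it). Cxcl1 and Cxcl5 are above control in both clones in 3D, Cxcl3 and Cx3cl1 are below it in both formats, and Cxcl16 lies above control in clone 2 and below it in clone 1 in 3D.

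Counted together, 3 of the 8 tested members were higher and 3 lower in clone 2 than in control in 3D, where 29.2% of all genes tested were called in either direction (11.9% higher, 17.4% lower). DESeq2's Wald test called 3 higher and 1 lower there, since Cx3cl1 missed its threshold and it gave Cxcl2 no adjusted p. In clone 1 in 3D, 2 members were higher and 3 lower, where 45.1% of all genes were called (22.0% higher, 23.0% lower). In 2D no member was higher and 5 were lower in clone 2, with 33.9% of all genes called (18.9% higher, 15.0% lower). Likewise no member was higher and 5 were lower in clone 1, with 39.8% called (19.8% higher, 20.0% lower). Cxcl2 is among the members lower in clone 2 in both formats, and it was tested only through its reads in control in 3D. Its lower calls are thus not independent of the filter on low counts, and it enters the medians below too. The median log2 change of the tested members was 0.61 in clone 2 and -0.13 in clone 1 in 3D, and -0.69 in clone 2 and -0.65 in clone 1 in 2D. The medians of all genes tested in these comparisons lay between 0.000 and 0.015. Both clones were set against the same control libraries, so their values are given side by side and not as independent evidence. Cxcl3 and Cx3cl1 were the members called lower in all 4 comparisons of a clone with control.

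**Figure D4:**
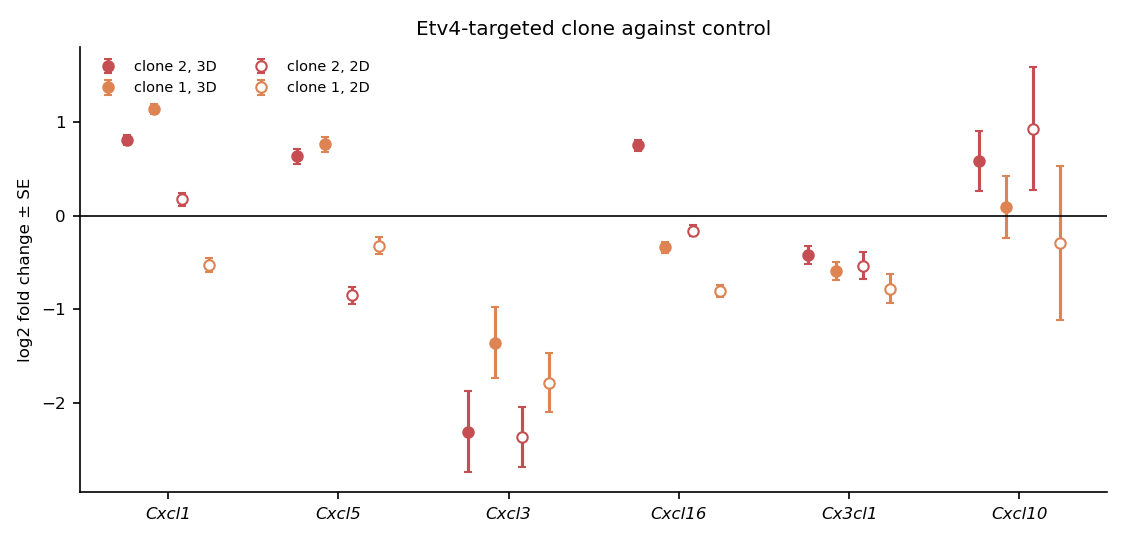
Log2 fold change against control with its SE (vertical axis) for the 6 tested members of highest mean level, for clone 2 (red) and clone 1 (orange) in 3D (filled points) and 2D (open points). Cxcl5 changes side between the formats in both clones, Cxcl1 in clone 1 and Cxcl16 in clone 2, and Cxcl3 and Cx3cl1 stay below 0 in all 4 comparisons.

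Whether the difference from control itself depended on the format was tested as an interaction, the log2 change against control in 3D less that in 2D. The same 3 members passed in each clone, Cxcl1, Cxcl5 and Cxcl16, all with a difference above 0. Such a difference is no higher level in 3D as such. Cxcl16 in clone 1 was lower than control in 3D (-0.34) and lower in 3D than in 2D (-0.41). In clone 2 the differences were 0.63 ± 0.09 for Cxcl1 (adjusted p = 8.57e-06), 1.49 ± 0.12 for Cxcl5 (adjusted p = 4.35e-09) and 0.91 ± 0.08 for Cxcl16 (adjusted p = 2.26e-08), where 22.2% of all genes were called (7.43% higher, 14.8% lower). In clone 1 they were 1.66 ± 0.09 for Cxcl1 (adjusted p = 1.25e-12), 1.08 ± 0.12 for Cxcl5 (adjusted p = 6.62e-07) and 0.46 ± 0.09 for Cxcl16 (adjusted p = 0.00103), where 7.02% were called (3.57% higher, 3.44% lower). For Cxcl3 the value was 0.06 in clone 2, which was not called, and 0.43 ± 0.51 in clone 1 (adjusted p = 0.706). For Cx3cl1 it was 0.11 ± 0.17 in clone 2 (adjusted p = 0.714) and 0.19 ± 0.18 in clone 1 (adjusted p = 0.624), and without the first clone 2 library of 2D it was 0.62 in clone 2 and was called (adjusted p = 0.0053).

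The clones were also set against each other. In 3D 1 tested member was higher and 1 lower in clone 2 than in clone 1, where 54.9% of all genes were called (26.4% higher, 28.5% lower). Cxcl16 was 2.13-fold higher in clone 2 (1.09 ± 0.06, adjusted p = 2.65e-14), and Cxcl1 was lower (-0.34 ± 0.05, adjusted p = 4.64e-06). Cxcl2 was at the threshold (-1.97 ± 0.84, adjusted p = 0.05), and fitting only 3D libraries called 6 members. In 2D Cxcl1 (0.70 ± 0.07, adjusted p = 2.24e-08) and Cxcl16 (0.64 ± 0.06, adjusted p = 9.13e-09) were higher in clone 2, and Cxcl5 was lower (-0.53 ± 0.09, adjusted p = 4.51e-05), where 41.6% of all genes were called (23.2% higher, 18.4% lower). Without the first clone 1 library or without the second clone 2 library of 2D, 5 members were called. Cxcl1 therefore stood lower in clone 2 than in clone 1 in 3D and higher in 2D. For chromosome 5, where Cxcl1 lies, the median of clone 2 over clone 1 was -0.162 in 3D and -0.126 in 2D. For chromosome 11, where Cxcl16 lies, it was 0.457 in 3D and 0.262 in 2D. Over all settings tried, the 3D value ran from -0.374 to -0.174 for Cxcl1 and from 0.633 to 1.152 for Cxcl16.

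Set against 2D, 3D cultures had more Cxcl1, Cxcl10 and Cx3cl1 and less Cxcl3 in all 3 cell populations. Cx3cl1 was 5.52-fold higher in clone 2 (2.46 ± 0.12, adjusted p = 2.84e-16), 5.81-fold in clone 1 (2.54 ± 0.13, adjusted p = 1.08e-15) and 5.10-fold in control (2.35 ± 0.12, adjusted p = 3.57e-16). Cxcl1 was higher by 3.41-fold in clone 2 (1.77 ± 0.06, adjusted p = 8.16e-20), 6.98-fold in clone 1 (2.80 ± 0.07, adjusted p = 5.08e-23) and 2.20-fold in control (1.14 ± 0.06, adjusted p = 3.66e-15). Cxcl10 was higher by 1.96 ± 0.42 in clone 2 (adjusted p = 0.000133), 2.69 ± 0.55 in clone 1 (adjusted p = 9.9e-05) and 2.31 ± 0.52 in control (adjusted p = 0.000284) on the log2 scale. Its few 2D reads, 22 and 4 in clone 2 and 8 and 1 in clone 1, leave the size uncertain: it was 3.41 without the first and 1.37 without the second clone 2 library of 2D, and 4.68 without the first and 1.96 without the second clone 1 library of 2D, each still called. Cxcl3 was lower in 3D, with log2 changes of -2.21 ± 0.47 in clone 2 (adjusted p = 0.000145), -1.84 ± 0.40 in clone 1 (adjusted p = 0.000207) and -2.26 ± 0.29 in control (adjusted p = 1.1e-07).

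Cxcl5 and Cxcl16 differed by format in ways that depended on the cells. Cxcl5 was higher in 3D in clone 2 (0.87 ± 0.09, adjusted p = 6.47e-10) and in clone 1 (0.47 ± 0.08, adjusted p = 1.94e-05) and lower in control (-0.61 ± 0.08, adjusted p = 3.06e-07). Cxcl16 was lower in 3D in clone 1 (-0.41 ± 0.06, adjusted p = 2.01e-06) and in control (-0.88 ± 0.06, adjusted p = 4.38e-13), and in clone 2 its value was 0.04 ± 0.06 (adjusted p = 0.564). The chromosome 11 median was 0.433 in clone 2, 0.144 in clone 1 and 0.231 in control in this comparison, and with chromosomes centred Cxcl16 was lower in 3D in clone 2 too (-0.40, adjusted p = 8.88e-07). The few reads of Ccl20 and Cxcl2 passed in 1 population each. Ccl20 had 21 counts in 3D and 1 in 2D in clone 2, a ratio of 12.2 by CPM with a 95% exact interval of 1.96 to 504 for counting error (adjusted p = 0.0204), and without the first clone 2 library of 2D (adjusted p = 0.163) or the second of 3D (adjusted p = 0.0722) it was not called. Cxcl2 had 17 counts in 3D and 1 in 2D in clone 1, a ratio of 7.93 with an interval of 1.24 to 331 (adjusted p = 0.0404). That call was lost when any one of the 4 clone 1 libraries was left out (adjusted p = 0.05 to 0.185), with only clone 1 libraries fitted (adjusted p = 0.0543) and with DESeq2's Wald test (adjusted p = 0.0936).

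In sum, 5 tested members were higher and 1 lower in 3D in clone 2, where 79.5% of all genes were called (42.5% higher, 37.0% lower). In clone 1, 5 were higher and 2 lower, where 75.1% were called (39.8% higher, 35.3% lower). In control, 3 were higher and 3 lower, where 77.2% were called (41.7% higher, 35.6% lower). The median change of the tested members was 1.86 in clone 2, 1.502 in clone 1 and 0.81 in control, against medians of all genes of 0.114 in clone 2, 0.080 in clone 1 and 0.102 in control. The median in clone 2 includes Cxcl2 (3.73, from 4 counts in 3D and 0 in 2D) and Ccl20 (3.38, from 21 and 1). Such counts do not fix the size of a change, and they raise that median. With a looser filter on low counts the medians of all genes were 0.332 in clone 2, 0.251 in clone 1 and 0.267 in control, still below the changes of Cxcl1, Cxcl10 and Cx3cl1.

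**Figure D5:**
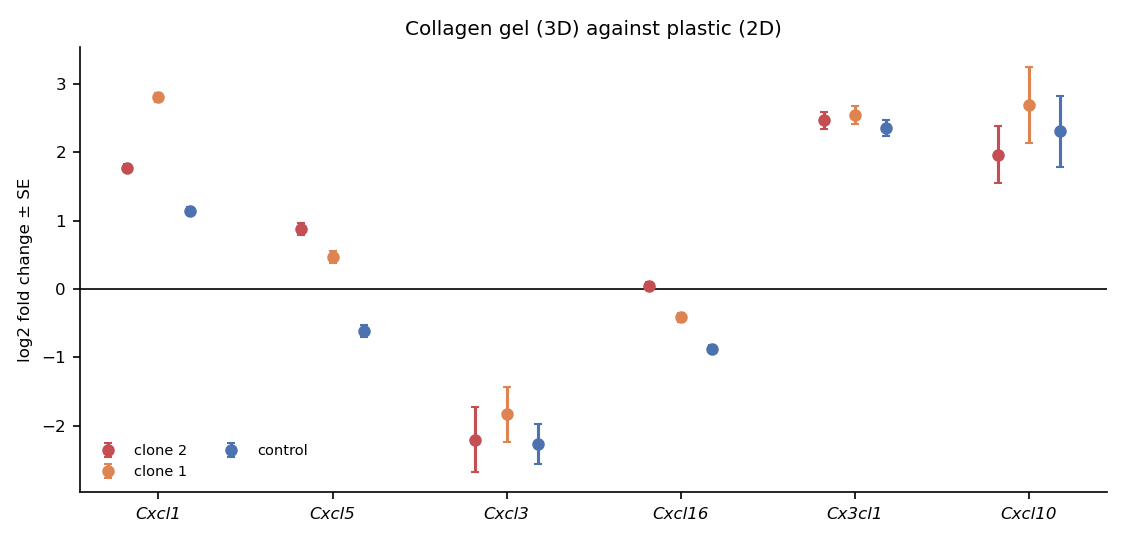
Log2 fold change of 3D against 2D with its SE (vertical axis) for 6 members in clone 2 (red), clone 1 (orange) and control (blue). Cx3cl1 and Cxcl10 lie close together in the 3 populations, and for Cxcl5 both clones lie above 0 and the control below it.

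Ordered by mean level, Cxcl1 ran from clone 1 in 3D, the highest, through clone 2 and control in 3D to clone 2, control and clone 1 in 2D, with no overlap of libraries between neighbours. Cx3cl1 ran from control through clone 2 and clone 1 in 3D to control, clone 2 and clone 1 in 2D, and only the last pair overlapped. Cxcl16 was highest in control in 2D and lowest in clone 1 in 3D, and clone 2 in 3D and in 2D, second and next in the order, overlapped. Cxcl5 was highest in clone 1 in 3D, and the next pair, clone 2 in 3D and control in 2D, overlapped.

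Profiles over the 6 group means were compared for the 3 members of highest mean level, among 9526 tested genes with a mean of at least 5 CPM, by the root mean square difference of centred log2 levels. Nearest to Cxcl16 were Ovca2 (0.128), Arrdc2 (0.148) and Ppm1k (0.152), where the profile of Cxcl16 itself had a root mean square of 0.455. Ovca2 shares 36.3% of its exon length with Dph1 on the same strand, so its count is uncertain. Nearest to Cx3cl1 were Slc36a1 (0.138), Rin2 (0.163) and Sec24a (0.178), against 1.27 for its own profile. Nearest to Cxcl1 were Uso1 (0.331), Hivep1 (0.335) and Slc39a9 (0.336), against 1.03, so no gene followed Cxcl1 as closely as others followed Cx3cl1. Among 9526 genes, Cxcl5 was ranked 3030 in likeness to Cxcl1 and Cx3cl1 was ranked 1116.

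Other chemokine ligands were scarce. Of 28 listed, 27 were in the tables, 14 had no count in any library and 4 were tested. Ccl5, a T cell and monocyte attractant, was higher in clone 2 in 3D, with 6.96 CPM in clone 2 and 1.93 CPM in control (1.84 ± 0.25, adjusted p = 1.65e-06). Ccl25 was lower in clone 1 in 3D (-0.45 ± 0.13, adjusted p = 0.00557). With Ppbp in clone 1, these were the calls on this list against control, 1 higher and none lower in clone 2 in 3D, 1 higher and 1 lower in clone 1 in 3D, none in clone 2 in 2D and 1 higher in clone 1 in 2D. Of all genes, 29.2% were called in clone 2 and 45.1% in clone 1 in 3D, and 33.9% in clone 2 and 39.8% in clone 1 in 2D.

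Of 23 chemokine receptors and scavengers, 6 were tested: Ackr3, Cxcr3, Cxcr6, Cx3cr1, Ccr9 and Ccr10. Ackr3, a scavenging receptor of Cxcl12, was lower in clone 2 in 3D (19.5 CPM in clone 2, 56.2 CPM in control, -1.53 ± 0.09, adjusted p = 4.95e-13) and higher in clone 1 in 3D (86.3 CPM, 0.62 ± 0.08, adjusted p = 2.84e-07). Cxcr3, the receptor of Cxcl10, was lower in clone 1 in 3D (6.28 CPM in clone 1, 15.3 CPM in control, -1.28 ± 0.14, adjusted p = 2.38e-08), and its value for clone 2 in 3D was 0.14 ± 0.13 (adjusted p = 0.447). In 2D Cxcr3 was lower in both clones, with 0.261 CPM in clone 2 (-1.87 ± 0.51, adjusted p = 0.00526), 0.341 CPM in clone 1 (-1.60 ± 0.51, adjusted p = 0.0144) and 1.03 CPM in control. As a list, none was higher and 1 lower in clone 2 in 3D (29.2% of all genes called) and 1 higher and 2 lower in clone 1 in 3D (45.1% called), and the list median was 0.088 in clone 2 and -0.602 in clone 1. In 2D none was higher and 1 lower in clone 2 (33.9% called) and 1 higher and 1 lower in clone 1 (39.8% called). All 6 were higher in control in 3D than in control in 2D, where 41.7% of all genes were higher, among them Cxcr3 (15.3 CPM in 3D, 1.03 CPM in 2D, 3.89 ± 0.22, adjusted p = 6.51e-15). In control in 2D, Ccr9 and Cxcr6 were at 0.0 CPM and Cx3cr1 and Ccr10 at 0.0687 CPM each. These genes had enough reads to be tested only through 3D, so their direction was close to fixed beforehand. The count of 6 is therefore no result about receptors.

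The proteases that shed Cxcl16 and Cx3cl1 or trim chemokines were 8 tested genes of 11. In 3D 2 were higher and 1 lower in clone 2, where 29.2% of all genes were called, and 4 were higher and 3 lower in clone 1, where 45.1% were. Their medians were 0.072 in clone 2 and 0.106 in clone 1, and the share called in clone 2 is near that of all genes. Mmp13, a collagenase, was lower in clone 2 in 3D (2.40 CPM in clone 2, 15.0 CPM in control, -2.65 ± 0.18, adjusted p = 8.85e-12), and Mmp14, a membrane-bound matrix protease, was higher in clone 1 in 3D (311 CPM in clone 1, 174.5 CPM in control, 0.83 ± 0.06, adjusted p = 5.38e-12). Rhbdf1, a partner of the sheddase Adam17, was higher in clone 2 (0.23 ± 0.06, adjusted p = 0.00607) and lower in clone 1 (-0.59 ± 0.06, adjusted p = 2.39e-08) in 3D, and lower in both in 2D (-0.26 ± 0.07 in clone 2, adjusted p = 0.00319, and -0.46 ± 0.07 in clone 1, adjusted p = 6.44e-06). In 2D 2 were higher and 4 lower in each clone (33.9% of all genes called in clone 2, 39.8% in clone 1), with Mmp9 lower in clone 2 (-1.0 ± 0.10, adjusted p = 2.53e-08) and in clone 1 (-0.88 ± 0.10, adjusted p = 1.07e-07). In 3D Mmp9 was higher in clone 2 (0.42 ± 0.07, adjusted p = 8.7e-05) and lower in clone 1 (-0.38 ± 0.08, adjusted p = 0.000162), and its interaction in clone 2 was 1.42 ± 0.12 (adjusted p = 1.21e-08). Adam10, a sheddase of Cxcl16 and Cx3cl1, was higher in 3D than in 2D in control (174 CPM in 3D, 30.4 CPM in 2D, 2.52 ± 0.09, adjusted p = 1.78e-19).

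Among cytokines that induce chemokines, 3 of the 5 tested were higher in clone 2 and all 5 lower in clone 1 in 3D. Of 9 listed, 5 were tested: Il1a, Il1b, Tnf, Il18 and Il33. In 3D 11.9% of all genes were higher and 17.4% lower in clone 2, and 22.0% were higher and 23.0% lower in clone 1. The list had median log2 changes of 0.88 in clone 2 and -2.0 in clone 1, beside medians of all genes of 0.004 and 0.000. In 3D Il1b had 74 and 75 counts in clone 2, 8 and 4 in clone 1 and 27 and 18 in control. Tnf had 35 and 36 counts in clone 2, 3 and 4 in clone 1 and 13 and 15 in control. In clone 1 both stayed under the level that the filter on low counts asks for. They were tested through the other groups, which favours a lower value in clone 1. Il1a, the interleukin 1 alpha gene, had 26.4 CPM in clone 2 and 14.3 CPM in control (0.88 ± 0.12, adjusted p = 1.28e-06), and 7.80 CPM in clone 1 (-0.87 ± 0.13, adjusted p = 3.42e-06). In 2D it was likewise higher in clone 2 (4.18 CPM in clone 2, 1.75 CPM in control, 1.26 ± 0.24, adjusted p = 0.000217) and lower in clone 1 (0.421 CPM, -2.07 ± 0.43, adjusted p = 0.000306). Exons on the other strand cover 11.2% of the exon length of Il1a. Cxcl1 in 3D was higher in both clones and Il1a in clone 2 alone, and a link between the 2 genes was not tested. In 2D 2 cytokines were higher and 1 lower in clone 2 (18.9% and 15.0% of all genes), and none was higher and 2 lower in clone 1 (19.8% and 20.0%). Il18, an inflammasome-released cytokine, was lower in both clones in 2D, with 0.754 CPM in clone 2 (-1.53 ± 0.39, adjusted p = 0.00344), 0.265 CPM in clone 1 (-3.06 ± 0.52, adjusted p = 3.46e-05) and 2.24 CPM in control.

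Their receptors and adaptors were all 14 tested. In 3D 5 were higher and 1 lower in clone 2, beside 11.9% higher and 17.4% lower of all genes, and 1 was higher and 6 lower in clone 1, beside 22.0% and 23.0%. Medians were 0.106 in clone 2 and -0.263 in clone 1. Il1rap, the accessory chain of the interleukin 1 receptor, was lower in clone 1 in 3D (24.6 CPM in clone 1, 51.3 CPM in control, -1.06 ± 0.09, adjusted p = 3.18e-10) and in 2D (-1.30 ± 0.12, adjusted p = 4.13e-09). Il1r1, the signalling receptor, was lower in clone 1 in 3D (-1.09 ± 0.12, adjusted p = 4.34e-08), and Tnfrsf1b, a TNF receptor, was higher in clone 2 in 3D (0.59 ± 0.07, adjusted p = 4.8e-07). In 2D 3 were higher and 2 lower in clone 2 (18.9% and 15.0% of all genes), and 1 was higher and 5 lower in clone 1 (19.8% and 20.0%).

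All 16 NF-kB and C/EBP regulators were tested. In 3D 6 were higher and none lower in clone 2, where 11.9% of all genes were higher and 17.4% lower. In clone 1 in 3D 4 were higher and 5 lower, near the 22.0% and 23.0% of all genes, and medians were 0.117 in clone 2 and 0.084 in clone 1. Tnfaip3, which encodes the NF-kB inhibitor A20, was higher in clone 2 in 3D (511 CPM in clone 2, 296 CPM in control, 0.79 ± 0.05, adjusted p = 1.58e-11). Nfkbiz, a nuclear cofactor of NF-kB, was higher in clone 2 in 3D (0.45 ± 0.06, adjusted p = 2.8e-06) and lower in clone 1 in 3D (-0.47 ± 0.06, adjusted p = 9.77e-07). In 2D 2 were higher and 2 lower in clone 2 (18.9% and 15.0% of all genes), and 1 was higher and 7 lower in clone 1 (19.8% and 20.0%), with Cebpb lower in clone 2 (-0.76 ± 0.10, adjusted p = 2.38e-06) and in clone 1 (-0.94 ± 0.11, adjusted p = 9.55e-08). Exons on the other strand cover 20.7% of the exon length of Cebpb.

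The regulators of mRNA decay, which act on unstable transcripts such as those of chemokines, were all 9 tested and all higher in control in 3D than in control in 2D, where 41.7% of all genes were higher. Zfp36, which encodes the decay factor tristetraprolin, had 117 CPM in 3D and 4.78 CPM in 2D there (4.62 ± 0.10, adjusted p = 2.01e-23). Against control in 3D, 2 were higher and 3 lower in clone 2 (29.2% of all genes called, list median -0.132), and 4 were higher and 2 lower in clone 1 (45.1% called, list median -0.028), with Hnrnpd lower in clone 2 (-0.43 ± 0.06, adjusted p = 2.27e-06) and higher in clone 1 (0.40 ± 0.06, adjusted p = 3.52e-06). In 2D 4 were higher and 1 lower in clone 2 (33.9% called), and 2 were higher and 1 lower in clone 1 (39.8% called).

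Of the 11 genes of the interferon axis, 8 were tested. In 3D 6 were higher and 1 lower in clone 2, where 29.2% of all genes were called (11.9% higher, 17.4% lower). In clone 1 in 3D none was higher and 4 were lower, where 45.1% were called (22.0% higher, 23.0% lower). Only the share in either direction in clone 1 is near that of the list. Medians were 0.568 in clone 2 and -0.251 in clone 1. Ifit1 was higher in clone 2 (11.2 CPM in clone 2, 3.77 CPM in control, 1.56 ± 0.18, adjusted p = 1.56e-07), and Isg15, an interferon-induced ubiquitin-like modifier, was lower in clone 1 (1.44 CPM in clone 1, 5.27 CPM in control, -1.88 ± 0.25, adjusted p = 7.03e-07). In 2D 1 was higher and 2 were lower in clone 2 (33.9% called), and 2 were higher and 2 lower in clone 1 (39.8% called). Cxcl10, whose induction runs through this axis, had no call in either clone in the fit of 12 libraries. In clone 2 in 3D it was at 0.58 ± 0.32 (adjusted p = 0.188), and fitting only 3D libraries called it (adjusted p = 0.0102).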

How the data were processed

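The authors sequenced polyadenylated RNA of 12 libraries (TruSeq Stranded mRNA kit, per the labels' protocols). They deposited whole-number read counts by gene symbol, one table for each culture format. Per the submitters' processing notes, the tools were Cell Ranger 3.0.0, featureCounts, STAR 2.7.9a, FastQC 0.11.9 and R 4.1.1, on mm10. Which tool did what, and whether counting used strand, are not given in the sources used here. If strand was not used, overlapping genes on opposite strands share reads. Both tables were merged on symbols, and edgeR 4.0.16, limma 3.58.1 and DESeq2 1.42.0 were run in R 4.3.3. After edgeR's filterByExpr, 13763 of 31017 genes remained, and library sizes were scaled by TMM. One quasi-likelihood fit of 12 libraries, with 6 group means, left 6 residual degrees of freedom, at a coefficient of biological variation of 4.51%. All adjusted p-values come from that fit by edgeR unless another is named. Each SE is the size of the log2 change divided by the square root of the F statistic of its test. It is unreliable where the change is close to 0. The procedure was tested on simulated data. A floor of 3 counts served only for ratios and upper levels of members at 0 counts, and the fits and levels used the counts as they were.

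Positions, overlaps and transcript lengths are from GENCODE M21 (mm10), and promoters from RefSeq (GRCm38.p6), where 6 of the 10 members had an entry. Named genes are the 10 members in every comparison, up to 3 genes of smallest p from each of 8 lists, and the 3 nearest profiles of the 3 most abundant members. Ppbp in clone 2, Cxcr3 in clone 2, Zmynd15 and Art3 were added after their values were seen. The members and lists were chosen with earlier results of these data known. Counts of the 2 libraries of a group differed beyond sampling noise, with a chi-square per degree of freedom of 3.78 to 10.5 over genes pooled. A few abundant genes can raise that figure, so it does not settle whether both came from one library. Alternatives were DESeq2's size factors, DESeq2's Wald test, a looser filter, removal of Gm26917 and Gm42418, fits of one format or one cell population, a replicate block, each chromosome centred on its median, and leaving out each library in turn, where the lone library left in a group is taken to vary like the others.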

Additional observations from a re-analysis of the deposited data

Results flagged for a closer look

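The difference from control depended on the culture format for 3 chemokines in each clone, by the interaction term of edgeR's quasi-likelihood test. The log2 change against control in 3D less that in 2D was 0.63 for Cxcl1, 1.49 for Cxcl5 and 0.91 for Cxcl16 in clone 2, and 1.66 for Cxcl1, 1.08 for Cxcl5 and 0.46 for Cxcl16 in clone 1. Cxcl5 was above control in 3D and below it in 2D in both clones, and so was Cxcl1 in clone 1 (1.14 in 3D, -0.52 in 2D). Cxcl16 in clone 2 was above control in 3D and slightly below it in 2D (-0.16). That small 2D change was not called with chromosomes centred (-0.08, adjusted p = 0.377), nor without either control library or the first clone 2 library of 2D. Both clones share the control libraries, and format, collagenase and count table cannot be told apart. With chromosomes centred, all 6 differences stayed above 0 and were called.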

How the results depend on the processing

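Single members kept direction and call in 951 of the alternatives tried. They kept direction but lost the call in 19, and kept direction and gained it in 15. Direction turned in 25, which were counted there whether or not the call changed too. Changes that bear on a result stand beside it above, and the cause was not tested. With only 3D libraries fitted, 6446 genes instead of 4023 were called for clone 2 against control, and 6 members instead of 2 for clone 2 against clone 1. With 1 library left out in turn, genes called were 2420 to 2585 for clone 2 against control in 3D, 1890 to 3121 for the interaction in clone 2 (3060 with all) and 429 to 1277 for that in clone 1 (966 with all). Members called were then 3 to 4 for clone 2 against control in 2D (5 with all) and 3 to 5 for clone 2 against clone 1 in 2D (3 with all), with 5 without clone 1 replicate 1 or clone 2 replicate 2.

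With each chromosome centred, direction turned for Cxcl10 (-0.14, adjusted p = 0.793) and Cxcl16 (0.091, adjusted p = 0.269) in clone 1 against control in 3D, for Cxcl5 in clone 2 against clone 1 in 3D (0.039, adjusted p = 0.721) and for Cxcl16 between formats in clone 2 (-0.40, adjusted p = 8.88e-07).

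Ranges that crossed 0 with 1 library left out were these. In the interaction in clone 2, Cxcl3 ran from -0.429 to 0.424, Cxcl10 from -0.940 to 1.107 and Cx3cl1 from -0.206 to 0.622. In that in clone 1, Cxcl3 ran from -0.057 to 0.796, Cxcl10 from -0.345 to 2.370 and Ccl20 from -1.441 to 5.409. For clone 2 against clone 1, Ccl20 ran from -0.215 to 0.253 in 3D, and in 2D Cxcl2 from -3.748 to 0.000, Cxcl10 from -0.234 to 3.212, Ccl20 from -5.761 to 2.698 and Cx3cl1 from -0.263 to 0.565. Against control, Cxcl10 ran from -0.142 to 0.340 in clone 1 in 3D, from -0.526 to 1.521 in clone 2 in 2D and from -2.280 to 0.435 in clone 1 in 2D, and Ccl20 from -4.668 to 2.182 in clone 1 in 2D. Between formats, Cxcl16 ran from -0.028 to 0.099 in clone 2 and Ccl20 from -0.802 to 6.048 in clone 1. None of the values that turned direction here was called.

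Replicate numbers were not shown to pair libraries, since same-numbered deviations correlated at -0.153 to 0.171. A replicate block left every count of members called as it was, with 6 in clone 2 and 5 in clone 1 against control in 3D, and 3836 and 5986 genes called. Depth limits Cxcl2, Ccl20, Ccl2 and Ccl7, with at most 19 counts in a library, and Cxcl10 in 2D.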
